A study of Homo sapiens with 18 samples.

Results

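The genes described are 60 human genes that encode RNA polymerase II, the Mediator complex and the general transcription factors, chosen by symbol from the 60252 gene IDs of the count tables. All 60 symbols were found: 12 polymerase subunits, 29 Mediator subunits, 11 subunits of TFIID, the 7 subunits of TFIIA, TFIIB, TFIIE and TFIIF on the list, and SUPT5H, a subunit of the elongation factor DSIF. They were measured by stranded total RNA sequencing in ZR-75-1, an established luminal breast cancer line that expresses the estrogen receptor. The 18 libraries form 6 groups of 3 biological replicates: ADAR knockdown cells with 100 nM triptolide, with DMSO or untreated, and control cells (labelled SHC) with 100 nM triptolide, with DMSO or untreated. All cells were held in medium with 1% serum for the 16 hours of treatment, the labels name a single knockdown and a single control line, and DMSO is the vehicle of triptolide.

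RNA polymerase II, which makes messenger RNA, is built from subunits of its own and from subunits shared with polymerases I and III. The general factors place it at the promoter, with TFIID binding the core promoter through TBP and the TAF proteins, while Mediator carries signals from activators to the polymerase through its head, middle and tail modules and a detachable kinase module. Triptolide is a plant compound that binds the XPB subunit of TFIIH and blocks initiation by polymerase II, and loss of the POLR2A protein in treated cells is known. ADAR edits adenosine to inosine in double-stranded RNA.

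The libraries held 26709657 to 35674502 counts in genes. Of the luminal epithelial markers, 10 of 10 reached 1 CPM (counts per 1000000 counts), against 1 of 5 basal or mesenchymal markers (VIM), 0 of 5 leukocyte markers, 1 of 5 stromal markers (COL1A1) and 1 of 3 endothelial markers (VWF). PECAM1 was also on the endothelial list, but its symbol was not matched to a gene ID. Mitochondrial ribosomal RNA took 42.7% to 55.2% of the counts in triptolide libraries, against 20.2% to 37.1% in DMSO and untreated libraries. The summed level of the leukocyte markers was 1.32 to 2.57 CPM in triptolide libraries, against 0.0284 to 0.331 CPM in the other libraries. The part of either in the results was not tested. Levels below are CPM scaled by TMM, a method that sets the bulk of genes equal between libraries, so each change is relative to the other genes and not to the cell. In bulk RNA, a lower level in every cell and a loss from some of the cells cannot be told apart. ADAR, the target of the knockdown, was at 110, 164 and 142 CPM in knockdown triptolide libraries, against 352, 467 and 319 CPM in control triptolide libraries. It averaged 289 ± 69.8 CPM in knockdown DMSO and 468 ± 193 CPM in control DMSO libraries (SD, n = 3 each), and was lower in the knockdown library of every same-numbered pair. The difference passed the test under triptolide only with the replicate number as a block (log2 -1.42 ± 0.18 SE, adjusted p = 0.000192), and without the block its adjusted p was 0.324. ADAR was not called between the lines in DMSO or untreated cells, also not with the block. There the log2 differences were -0.65 (edgeR, adjusted p = 0.144) and -0.67 (adjusted p = 0.137).

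One library stood apart. In knockdown untreated replicate 1, 58 genes lay over 2 times above the highest of the other 11 DMSO and untreated libraries, against 0 or 1 gene in each of those 11 (genes above 5 CPM). POLR2A was the 1 tested member among the 58. Results that rest on that library are given with and without it.

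With triptolide the messenger RNA of many Mediator subunits was lower, that of a few polymerase subunits was higher relative to other genes, and few of the general factors passed the test, though more did with the replicate block. Of the 59 members tested, 10 were called higher and 20 lower with triptolide than with DMSO in the knockdown line (edgeR, adjusted p under 0.05), where 16.7% of all 21285 genes tested were called higher and 18.9% lower. In the control line 5 were called higher and 18 lower, where 14.9% of all genes were called higher and 16% lower. The higher share of the members lay below the background in the control line and near it in the knockdown line, and the lower share lay above it in both. The median log2 change of the members was -0.22 in the knockdown line and -0.13 in the control line, against 0.04 and 0.03 over all genes tested. With the replicate number as a block the counts were 15 higher and 25 lower in the knockdown line (29.1% and 28.1% of all genes) and 18 higher and 24 lower in the control line (26.1% and 26% of all genes). The counts of higher members rested on single libraries. In the knockdown line the count was 5 after leaving out any 1 DMSO library or triptolide replicate 1 or 3. In the control line the count was 2 without DMSO replicate 2 or 3, 3 without DMSO replicate 1 or triptolide replicate 3, and 8 without triptolide replicate 2.

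Called in the same direction in both lines were 5 higher members (POLR2A, POLR2K, MED28, MED29 and TAF13; 12.6% of all genes) and 18 lower members (14.3% of all genes). The lower ones were 16 Mediator subunits, namely MED1, MED6, MED7, MED8, MED9, MED11, MED12, MED13, MED17, MED18, MED19, MED21, MED22, MED23, MED30 and CDK8, and the TFIID subunits TAF4 and TAF7. With the replicate block, 14 members were higher (22.8% of all genes) and 24 lower (23% of all genes) in both lines. All 6 triptolide libraries lay above all 12 other libraries for GTF2A2, MED28, MED29, POLR2K and TAF13, 5 of 59 members, against 12% of all genes. They lay below all 12 for 16 members, against 13.1% of all genes. Taking triptolide and DMSO libraries with the same replicate number as pairs, 15 members were higher and 24 lower in 6 of 6 pairs, against 29.4% and 28.5% of all genes.

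**Figure D1:**
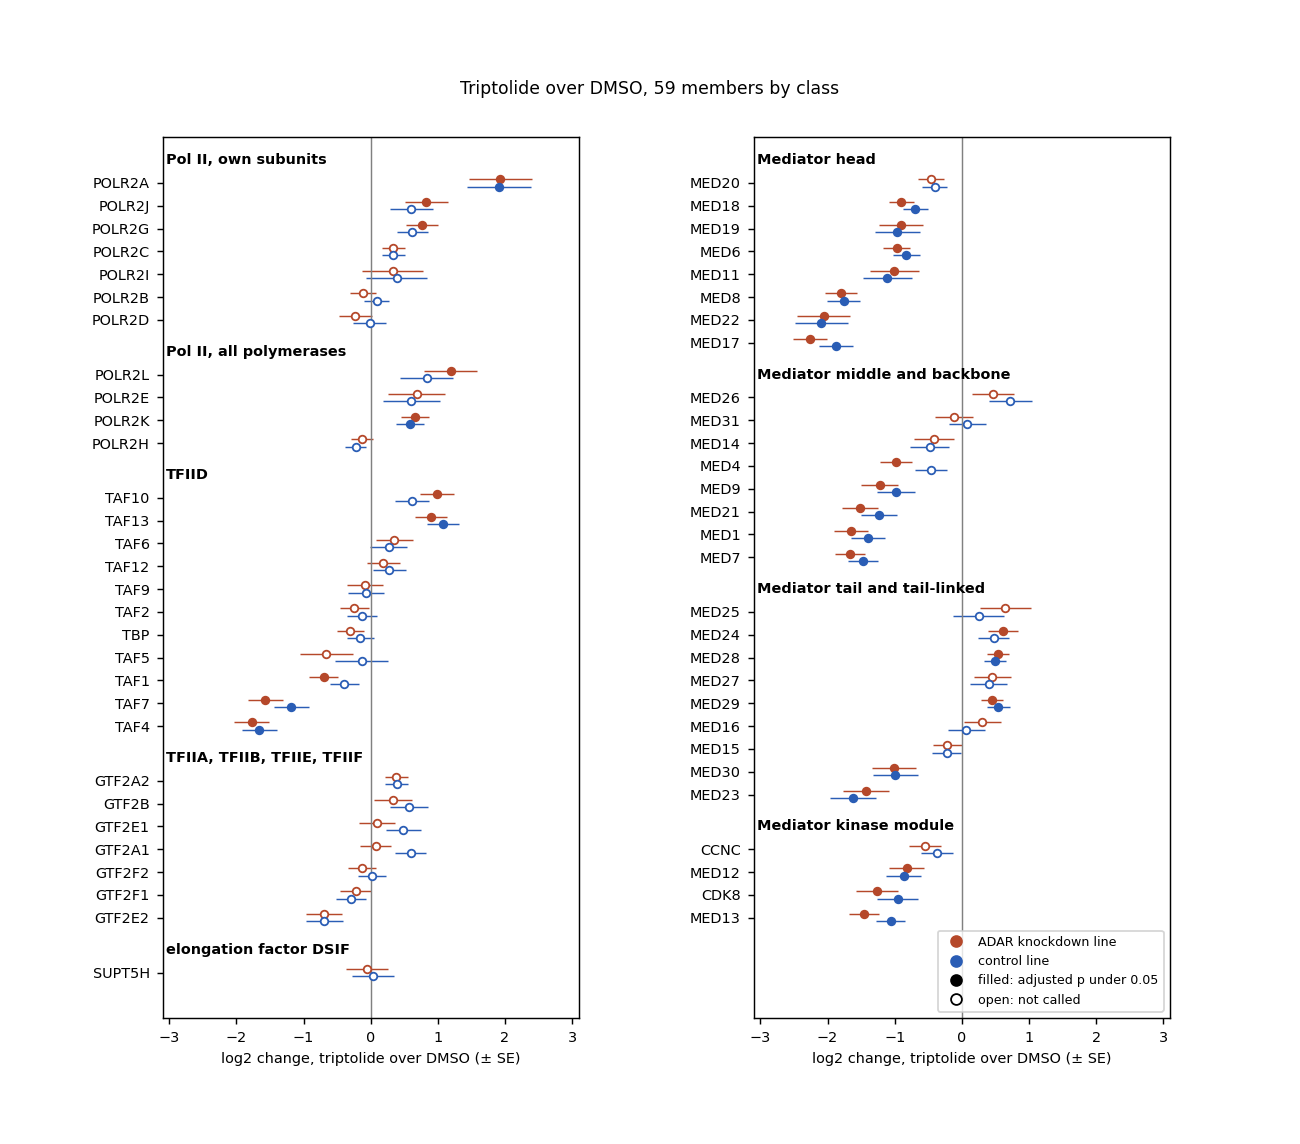
Log2 change (± SE) of each of the 59 tested members, triptolide over DMSO, in the ADAR knockdown line (upper point) and the control line (lower point), grouped by complex and module. Filled points have an adjusted p under 0.05. The 8 Mediator head subunits all lie left of 0, while most polymerase subunits lie right of it under TMM scaling. MED28, MED29 and POLR2K change sign when libraries are scaled to total counts or to mitochondrial mRNAs, and TAF13 does in the knockdown line with the latter.

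The size of the "higher" values depended on the scaling. Scaled to total counts, the median of all genes tested was -0.67 in the knockdown line and -0.60 in the control line, and 0 members were called higher and 36 and 32 lower (edgeR; POLR2A was the 1 member higher at an unadjusted p under 0.05 in each line). Scaled to the 13 mitochondrial mRNAs it was -1.36 and -0.79, with 0 members higher and 45 and 25 lower. Calls over all genes shifted the same way. Of 21285 genes tested, 1283 were higher and 7056 lower in both lines with total counts. With mitochondrial mRNAs 732 were higher and 5876 lower, against 2692 and 3051 with TMM. Under these 2 scalings MED28, MED29 and POLR2K had negative log2 changes in both lines, and TAF13 did in the knockdown line with mitochondrial mRNAs. POLR2A stayed positive under each scaling tried. All 18 members called lower in both lines stayed negative under each, and relative to the median of all genes all 5 higher and 18 lower members kept their sign.

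**Figure D2:**
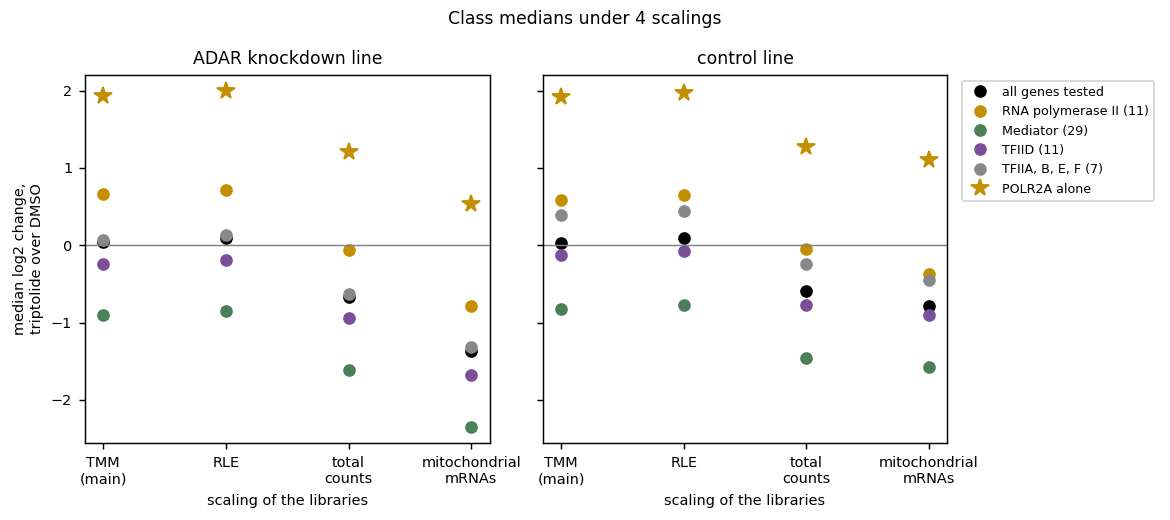
Median log2 change, triptolide over DMSO, of each complex and of all genes tested under 4 ways of scaling the libraries, in the knockdown line (left) and the control line (right); stars show POLR2A alone. All medians move down with total counts and mitochondrial mRNAs, the polymerase II median falls below 0 there, and the Mediator median stays lowest of those drawn.

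Promoter windows are shown for the 2 higher and the 2 lower members with the largest change in both lines, among those with an entry in the RefSeq promoter table (GRCh38.p14). Each runs 5′ to 3′ on the gene's strand, from 250 bases before the start to 50 after it. They are POLR2A (chr17:7484116-7484415, + strand), TAF13 (chr1:109075954-109076253, - strand), MED17 (chr11:93784032-93784331, + strand) and TAF4 (chr20:62065832-62066131, - strand). Capitals mark the ETS-type letters CCGGAAG and the NF-Y letters CCAAT, either strand.
POLR2A: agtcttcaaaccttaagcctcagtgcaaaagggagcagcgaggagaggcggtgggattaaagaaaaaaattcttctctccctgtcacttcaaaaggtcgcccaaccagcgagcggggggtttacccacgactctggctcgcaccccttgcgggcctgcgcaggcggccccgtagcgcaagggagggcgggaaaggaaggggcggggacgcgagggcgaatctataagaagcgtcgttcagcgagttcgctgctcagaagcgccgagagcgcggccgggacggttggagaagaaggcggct
TAF13: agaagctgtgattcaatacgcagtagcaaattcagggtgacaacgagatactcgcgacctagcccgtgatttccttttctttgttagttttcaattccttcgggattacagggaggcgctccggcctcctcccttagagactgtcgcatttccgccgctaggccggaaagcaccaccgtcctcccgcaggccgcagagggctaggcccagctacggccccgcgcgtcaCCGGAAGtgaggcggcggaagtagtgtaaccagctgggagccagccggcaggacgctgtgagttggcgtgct
MED17: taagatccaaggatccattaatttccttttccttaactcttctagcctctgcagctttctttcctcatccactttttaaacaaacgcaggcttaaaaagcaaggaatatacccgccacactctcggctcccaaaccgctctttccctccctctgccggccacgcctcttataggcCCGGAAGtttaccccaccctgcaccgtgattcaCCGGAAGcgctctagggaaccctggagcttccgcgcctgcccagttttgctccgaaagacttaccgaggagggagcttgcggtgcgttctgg
TAF4: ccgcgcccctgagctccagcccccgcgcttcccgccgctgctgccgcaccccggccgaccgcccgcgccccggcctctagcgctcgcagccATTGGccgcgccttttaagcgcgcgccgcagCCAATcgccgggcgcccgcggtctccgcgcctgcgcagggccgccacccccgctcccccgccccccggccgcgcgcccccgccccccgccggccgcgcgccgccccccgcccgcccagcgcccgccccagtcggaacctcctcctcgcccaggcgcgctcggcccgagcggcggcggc
TAF13 held 1 match of the ETS-type letters and MED17 held 2, TAF4 held 2 NF-Y matches, and POLR2A held none of the 5 motifs searched. The window of TAF4 was 85.0% G and C, against 61.3% for POLR2A, 59.3% for TAF13 and 53.3% for MED17.

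Among the 46 members with an entry, 16 held CCGGAAG on either strand (34.8%), against 10.3% of all 35116 windows of the table, which also cover genes that do not code for protein. ATGGCGG, the YY1-type letters, was found in 9 (19.6%), against 5.55% of all windows. CCAAT was found in 11 (23.9%), against 34.6%. TATAAA on the sense strand was found in GTF2B and MED7 (4.35%, against 7.33%), and GCATGCG, the NRF1-type letters, in MED18 and POLR2F (4.35%, against 3.91%). CCGGAAG was present in 2 of 3 windows of members called higher in both lines, 4 of 12 called lower and 9 of 30 of the other tested members.

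Among the polymerase genes, under triptolide 5 of 11 tested subunits of RNA polymerase II were called higher in the knockdown line and 2 of 11 in the control line, and none was called lower, also not at an unadjusted p under 0.05 or with DESeq2. Among all genes 16.7% were called higher in the knockdown line and 14.9% in the control line. Scaling to total counts or to mitochondrial mRNAs gave lower calls and no higher ones. RLE size factors, another scaling, gave 3 subunits higher in both lines (POLR2A, POLR2G and POLR2K) and 0 lower in both. With total counts 3 were lower in the knockdown line and 2 in the control line, POLR2B and POLR2H in both, and with mitochondrial mRNAs 4 and 1. Of all 21285 genes tested, 7056 were lower in both lines with total counts and 5876 with mitochondrial mRNAs. With TMM scaling the median log2 change of the 11 subunits was 0.66 in the knockdown line and 0.59 in the control line. With the replicate block 7 of 11 were higher in each line, where 29.1% (knockdown) and 26.1% (control) of all genes were. POLR2A (chr17:7387685-7417933, GRCh37, + strand), the largest subunit, whose tail is phosphorylated during transcription, was at 112, 121 and 111 CPM in knockdown triptolide libraries, against 35.0, 23.2 and 32.1 CPM in knockdown DMSO libraries. Control cells had 117, 107 and 98.8 CPM with triptolide, against 33.7, 21.3 and 30.7 CPM with DMSO. Triptolide and DMSO libraries did not overlap in either line. The log2 change was 1.93 ± 0.47 (SE, adjusted p = 0.00432) in the knockdown line and 1.91 ± 0.47 (adjusted p = 0.00537) in the control line. Without knockdown untreated replicate 1, which shares the estimate of spread, the changes were 1.91 (adjusted p = 1.7e-05) and 1.90 (adjusted p = 2.8e-05). The call was lost with 2 scalings. Total counts gave 1.21 in the knockdown line (adjusted p = 0.0585) and 1.27 in the control line (0.0507), while mitochondrial mRNAs gave 0.53 (0.341) and 1.11 (0.0795).

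POLR2K (chr8:101162851-101166231, GRCh37, + strand), a small zinc-binding subunit shared by the 3 polymerases, was at 78.9, 108 and 109 CPM in knockdown triptolide libraries, against 52.8, 66.0 and 68.6 CPM in knockdown DMSO libraries. Control cells had 80.3, 98.3 and 92.4 CPM with triptolide, against 52.0, 62.4 and 65.8 CPM with DMSO. The groups did not overlap within a line, and the log2 change was 0.66 ± 0.21 (adjusted p = 0.0209) in the knockdown line and 0.59 ± 0.21 (adjusted p = 0.0421) in the control line. It was negative when scaled to total counts or mitochondrial mRNAs. The control-line call was lost without any 1 of the 3 triptolide or 3 DMSO libraries (adjusted p 0.0526 to 0.161), and the knockdown-line call without DMSO replicate 1 (0.102) or triptolide replicate 2 or 3 (0.0772 and 0.0775).

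POLR2L, POLR2J and POLR2G were called higher in the knockdown line (log2 1.19, 0.83 and 0.76) and were at 0.83, 0.61 and 0.62 in the control line, where they passed with the block (adjusted p = 0.0121, 0.0209 and 0.000808). POLR2L is shared by the 3 polymerases, POLR2J forms the assembly core with POLR2C, and POLR2G is part of the stalk. The difference between the lines was not called for any of them. CD151 on the opposite strand shares 22.8% of the exon bases of POLR2L. POLR2J has near-identical copies in the genome, and reads without a unique alignment were tallied apart and not counted for it. The second-largest subunit POLR2B, which forms the active centre with POLR2A, averaged 116 ± 14.2 CPM with triptolide and 126 ± 12.5 CPM with DMSO in the knockdown line, and 124 ± 31.8 against 116 ± 5.89 CPM in the control line (SD, n = 3 each), with log2 changes of -0.11 and 0.09 that were not called. POLR2D, POLR2H and POLR2I were not called in either line with or without the block, and POLR2C and POLR2E were called higher in both with it. Another gene on the opposite strand shares 69.0% of the exon bases of POLR2I. POLR2F (chr22:38348614-38437922, GRCh37, + strand) had 80 counts in all 18 libraries together and 0 in 2 of them, and was not tested. Its mean in control DMSO libraries was 0.0925 CPM, the lowest of the members. The strand setting and annotation release of the counts are not given. Whether counting or annotation lowered its counts was not tested, so they are not read as absence of the messenger RNA.

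**Figure D3:**
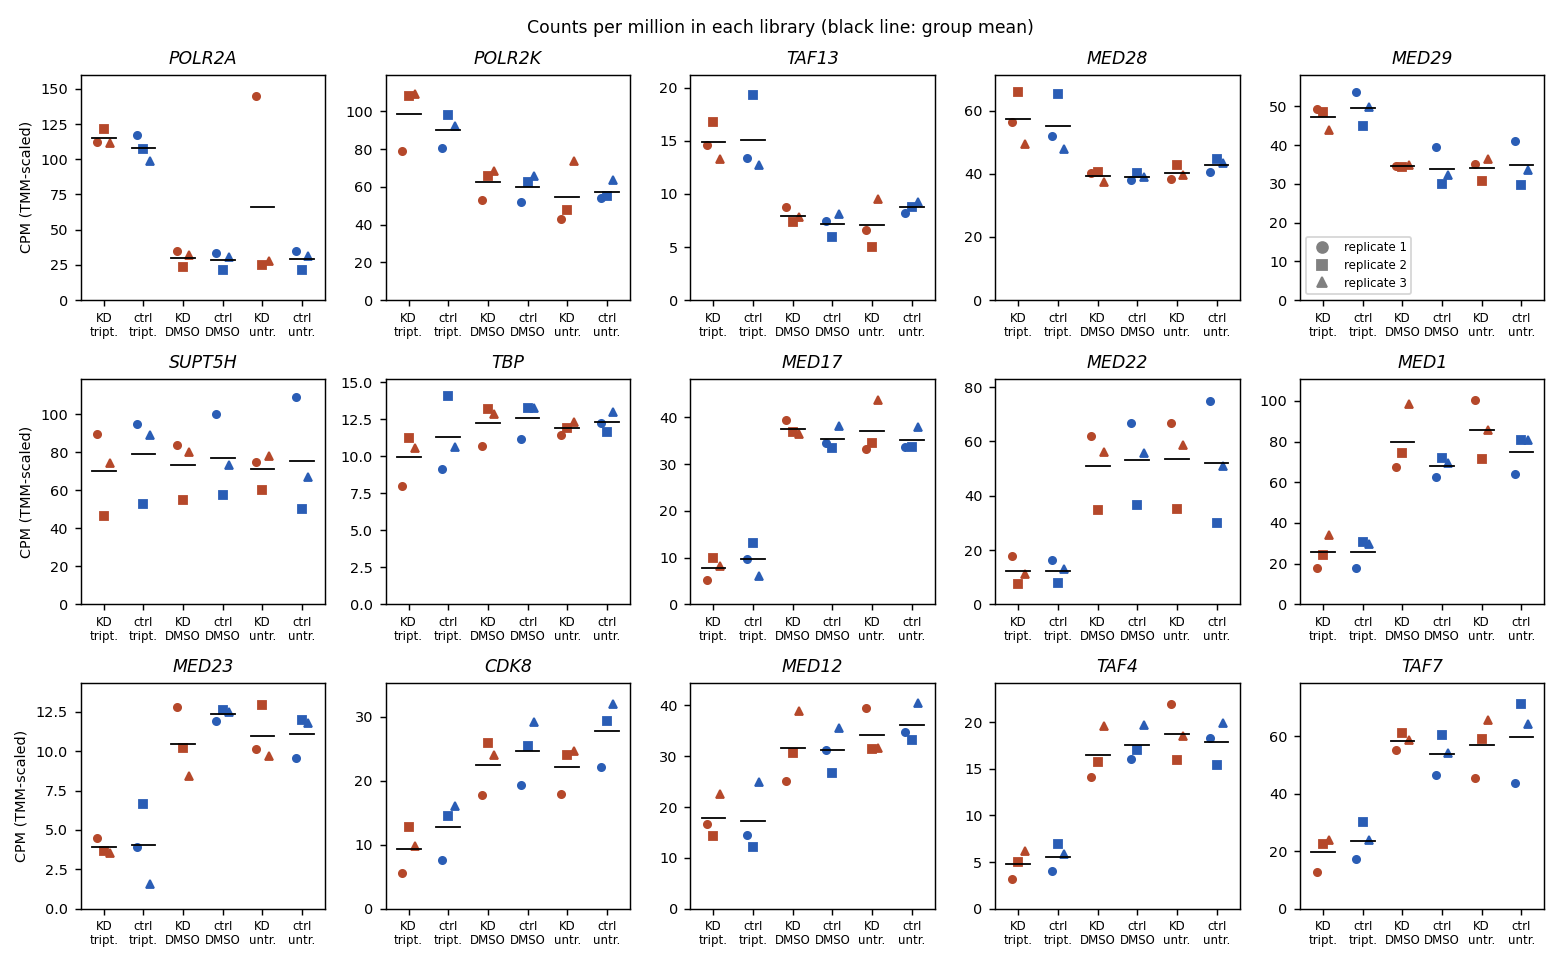
TMM-scaled CPM of 15 members in each library, grouped on the horizontal axis by treatment (tript., triptolide; untr., untreated) with the knockdown (KD) left of the control (ctrl); symbols are replicate numbers and black lines are group means. POLR2A, POLR2K, TAF13, MED28 and MED29 lie higher in the triptolide libraries, a position that changes sign with other scalings for the last 2, for POLR2K and in part for TAF13, while MED17, MED22, MED1, MED23, CDK8, MED12, TAF4 and TAF7 lie lower; POLR2A in knockdown untreated replicate 1 is at 145 CPM.

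Of the 29 Mediator subunits, 3 were called higher and 17 lower in the knockdown line, and 2 higher and 16 lower in the control line, with median log2 changes of -0.91 and -0.82. Among all genes 16.7% were higher and 18.9% lower in the knockdown line, and 14.9% and 16% in the control line. The replicate block gave 5 higher and 20 lower in each line. With it 29.1% of all genes were higher and 28.1% lower in the knockdown line, and 26.1% and 26% in the control line. The Mediator modules differed in their counts, which depend on the assignment of subunits used here. MED27, MED28, MED29 and MED30 were counted with the tail, and MED28 and MED29 were the only subunits called higher in both lines. In the head, which contacts the polymerase, 7 of 8 subunits were called lower in both lines and the eighth, MED20, was lower with the block (log2 -0.46 and -0.42). The count in both lines was 6 with no low-count filter, 5 with RLE size factors and 4 with only the groups compared, where MED11, MED18 and MED19 were lost. None of the head subunits was higher at an unadjusted p under 0.05 or with DESeq2.

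MED17 (chr11:93517393-93548129, GRCh37, + strand), the scaffold of the head, was at 5.31, 9.96 and 8.26 CPM in knockdown triptolide libraries, against 39.5, 36.8 and 36.5 CPM in knockdown DMSO libraries. It was at 9.65, 13.2 and 6.16 CPM in control triptolide libraries, against 34.4, 33.4 and 38.2 CPM in control DMSO libraries. Each triptolide library was below each DMSO library by a wide margin, and the log2 change was -2.26 ± 0.26 (adjusted p = 8.26e-06) in the knockdown line and -1.87 ± 0.26 (adjusted p = 5.72e-05) in the control line. MED22 (chr9:136205149-136214986, GRCh37, - strand), another head subunit, was at 17.8, 7.62 and 11.3 CPM with triptolide in the knockdown line, against 62.0, 34.9 and 56.3 CPM with DMSO. Control cells had 16.4, 7.74 and 13.1 CPM with triptolide, against 66.7, 36.6 and 55.8 CPM with DMSO. Replicate 2 was lowest in every group for MED22, yet the triptolide libraries stayed below all DMSO libraries. The log2 change was -2.06 ± 0.40 (adjusted p = 0.000739) in the knockdown line and -2.09 ± 0.40 (adjusted p = 0.000789) in the control line. MED8, MED6, MED11, MED18 and MED19 had log2 changes of -0.90 to -1.80 in the knockdown line and of -0.69 to -1.76 in the control line. A noncoding gene on the opposite strand shares 31.2% of the exon bases of MED11.

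In the middle module and its backbone, 5 of 8 subunits were lower in the knockdown line and 4 of 8 in the control line. The shares of all genes lower there were 18.9% and 16%. MED1 (chr17:37560538-37607525, GRCh37, - strand), which binds nuclear receptors including the estrogen receptor, was at 18.1, 24.4 and 34.1 CPM in knockdown triptolide libraries, against 67.5, 74.4 and 98.3 CPM in knockdown DMSO libraries. In control cells it was at 17.7, 30.5 and 29.5 CPM with triptolide, against 62.5, 71.8 and 69.7 CPM with DMSO. The ranges did not overlap, with log2 changes of -1.65 ± 0.25 (adjusted p = 0.000119) in the knockdown line and -1.39 ± 0.25 (adjusted p = 0.000548) in the control line. MED7 (chr5:156564435-156586030, GRCh37, - strand), part of the hinge of the middle module, was at 5.76, 4.58 and 3.72 CPM with triptolide in the knockdown line, against 15.9, 14.9 and 13.8 CPM with DMSO. The control line had 5.89, 5.32 and 3.61 CPM with triptolide, against 14.0, 13.8 and 13.4 CPM with DMSO. It was low in all 6 triptolide libraries, with log2 changes of -1.67 ± 0.23 (adjusted p = 4.36e-05) and -1.47 ± 0.23 (adjusted p = 0.000156). MED21, the hinge partner of MED7, and MED9 were lower in both lines, and MED4 was lower in the knockdown line (log2 -0.98) and, with the block, in the control line (-0.47, adjusted p = 0.0398). The backbone subunit MED14 (-0.41 and -0.48) was not called, but was lower with the block and when scaled to total counts or mitochondrial mRNAs, MED31 was not called (-0.12 and 0.08), and MED26 was at 0.46 and 0.72 with a call under the block in the control line only; 27.2% of the exon bases of MED26 are shared with another gene on the same strand, as are 58.4% of those of MED31 with TXNDC17 on the opposite strand.

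Under TMM scaling the tail and its linked subunits went both ways. In the knockdown line 3 of 9 were higher and 2 lower, and in the control line 2 were higher and 2 lower. The shares of all genes were 16.7% higher and 18.9% lower in the knockdown line, and 14.9% and 16% in the control line. With total counts all 9 had negative log2 changes in both lines and 3 were called lower in each, and with mitochondrial mRNAs 6 were lower in the knockdown line and 2 in the control line, with 0 higher. With these 2 scalings, 7056 and 5876 of all 21285 genes tested were lower in both lines. MED23 (chr6:131895106-131949382, GRCh37, - strand), a tail subunit that receives activator signals, was at 4.50, 3.65 and 3.54 CPM in knockdown triptolide libraries, against 12.8, 10.2 and 8.43 CPM in knockdown DMSO libraries. It was at 3.90, 6.63 and 1.55 CPM in control triptolide libraries, against 11.9, 12.7 and 12.5 CPM in control DMSO libraries. Triptolide libraries were the lower in both lines, and the log2 change was -1.43 ± 0.34 (adjusted p = 0.0037) in the knockdown line and -1.62 ± 0.34 (adjusted p = 0.0019) in the control line. MED30 (chr8:118532952-118552501, GRCh37, + strand) was at 4.82, 4.49 and 6.44 CPM with triptolide in the knockdown line, against 7.61, 14.2 and 10.1 CPM with DMSO. The control line had 4.19, 4.21 and 7.12 CPM with triptolide, against 7.58, 14.1 and 9.13 CPM with DMSO. The nearest libraries of the 2 treatments were close, and the log2 changes of -1.01 ± 0.33 (adjusted p = 0.0246) and -0.99 ± 0.33 (adjusted p = 0.0319) lost their call without triptolide replicate 1 or 2 or DMSO replicate 2 (adjusted p 0.0748 to 0.116 in the knockdown line and 0.101 to 0.167 in the control line).

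MED28 and MED29, counted here with the tail, were the subunits higher in both lines. MED28 (chr4:17616264-17635728, GRCh37, + strand) was at 56.5, 66.0 and 49.4 CPM in knockdown triptolide libraries, against 40.2, 40.5 and 37.4 CPM in knockdown DMSO libraries, and at 51.9, 65.3 and 47.8 CPM in control triptolide libraries, against 38.1, 40.1 and 38.9 CPM in control DMSO libraries. MED29 (chr19:39881943-39891281, GRCh37, + strand) was at 49.3, 48.6 and 43.9 CPM with triptolide in the knockdown line, against 34.5, 34.4 and 34.9 CPM with DMSO, and at 53.7, 44.8 and 49.8 CPM with triptolide in the control line, against 39.5, 30.1 and 32.3 CPM with DMSO. The triptolide libraries lay above the DMSO libraries without overlap for both genes. MED28 changed by log2 0.54 ± 0.16 (adjusted p = 0.0155) in the knockdown line and 0.49 ± 0.16 (adjusted p = 0.0283) in the control line, and MED29 by 0.45 ± 0.17 (adjusted p = 0.0465) and 0.54 ± 0.17 (adjusted p = 0.0218). Both were negative when scaled to total counts or mitochondrial mRNAs. These calls were near the threshold. For MED28 they were lost without triptolide replicate 2 or DMSO replicate 3 of the knockdown line (adjusted p = 0.0897 and 0.0694), and without triptolide replicate 2 or any DMSO library of the control line (0.0581 to 0.134). For MED29 they were lost without any of the 6 knockdown triptolide or DMSO libraries or knockdown untreated replicate 1 (0.0624 to 0.128), and without control triptolide replicate 1 or 3 or DMSO replicate 2 or 3 (0.0554 to 0.0912). FAM184B on the opposite strand shares 32.1% of the exon bases of MED28.

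The kinase module had 3 of 4 subunits lower in each line, where 18.9% (knockdown) and 16% (control) of all genes were lower. CDK8 (chr13:26828241-26995119, GRCh37, + strand), its kinase, was at 5.63, 12.8 and 9.73 CPM in knockdown triptolide libraries, against 17.7, 25.8 and 24.0 CPM in knockdown DMSO libraries. It was at 7.62, 14.5 and 16.0 CPM in control triptolide libraries, against 19.3, 25.5 and 29.1 CPM in control DMSO libraries. The ranges did not overlap, with log2 changes of -1.26 ± 0.31 (adjusted p = 0.00421) and -0.96 ± 0.31 (adjusted p = 0.0246); the control-line call was lost without triptolide replicate 1 or DMSO replicate 2 or 3 (adjusted p = 0.112, 0.0602 and 0.0861). MED12 (chrX:70338393-70363953, GRCh37, + strand), which activates CDK8, was at 16.6, 14.4 and 22.5 CPM in knockdown triptolide libraries, against 25.1, 30.5 and 39.0 CPM in knockdown DMSO libraries. Control cells had 14.4, 12.1 and 24.9 CPM with triptolide, against 31.2, 26.8 and 35.7 CPM with DMSO. The highest triptolide value came within 2 CPM of the lowest DMSO value in the control line, and the log2 changes were -0.82 ± 0.26 (adjusted p = 0.0192) in the knockdown line and -0.86 ± 0.26 (adjusted p = 0.017) in the control line. They lost their call without triptolide replicate 1 or 2 or DMSO replicate 3 of the line (0.0618 to 0.0902 in the knockdown line and 0.0643 to 0.0743 in the control line). MED13 (chr17:60019966-60142639, GRCh37, - strand), which ties the kinase module to the core, was at 39.8, 62.4 and 54.4 CPM with triptolide in the knockdown line, against 115, 149 and 167 CPM with DMSO, and at 47.0, 74.7 and 51.8 CPM with triptolide in the control line, against 103, 127 and 131 CPM with DMSO. Its log2 changes were -1.46 ± 0.22 (adjusted p = 0.000105) and -1.06 ± 0.22 (adjusted p = 0.00156). CCNC, the cyclin of CDK8, was at -0.55 and -0.37 and was lower with the block (adjusted p = 0.00166 and 0.0269).

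Of the 11 TFIID subunits, 2 were higher and 3 lower in the knockdown line, and 1 was higher and 2 lower in the control line, with median log2 changes of -0.24 and -0.13. Among all genes 16.7% were called higher and 18.9% lower in the knockdown line, and 14.9% and 16% in the control line. The TFIID counts lay near these shares. TBP (chr6:170863390-170881958, GRCh37, + strand), which bends the DNA at the core promoter, was at 8.02, 11.2 and 10.6 CPM in knockdown triptolide libraries, against 10.7, 13.2 and 12.9 CPM in knockdown DMSO libraries. It was at 9.15, 14.1 and 10.6 CPM in control triptolide libraries, against 11.2, 13.3 and 13.3 CPM in control DMSO libraries. The groups overlapped, and the log2 changes of -0.30 ± 0.20 (adjusted p = 0.255) and -0.16 ± 0.20 (adjusted p = 0.593) did not pass the test, also not with the block. Scaled to total counts TBP was called lower in both lines (adjusted p = 0.000474 in the knockdown line and 0.00329 in the control line), and scaled to mitochondrial mRNAs in the knockdown line (log2 -1.69).

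TAF4 (chr20:60528525-60640937, GRCh37, - strand), a scaffold subunit of TFIID, was at 3.20, 5.05 and 6.19 CPM in knockdown triptolide libraries, against 14.1, 15.8 and 19.6 CPM in knockdown DMSO libraries. It was at 3.98, 6.92 and 5.86 CPM in control triptolide libraries, against 16.1, 17.0 and 19.7 CPM in control DMSO libraries. All triptolide libraries were lower, with log2 changes of -1.77 ± 0.26 (adjusted p = 7.93e-05) and -1.66 ± 0.26 (adjusted p = 0.00017). TAF7 (chr5:140639452-140700351, GRCh37, - strand), whose protein binds TAF1 and whose main transcript has 1 exon, was at 12.9, 22.5 and 23.7 CPM with triptolide in the knockdown line, against 55.2, 61.1 and 58.8 CPM with DMSO. The control line had 17.3, 30.0 and 23.8 CPM with triptolide, against 46.7, 60.5 and 54.1 CPM with DMSO. It too was lower without overlap, by log2 -1.57 ± 0.26 (adjusted p = 0.000224) and -1.18 ± 0.26 (adjusted p = 0.00224); a pseudogene on the same strand shares 18.5% of its exon bases.

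TAF13 (chr1:109605118-109618634, GRCh37, - strand), a histone-fold subunit of TFIID, was at 14.6, 16.7 and 13.3 CPM in knockdown triptolide libraries, against 8.74, 7.32 and 7.81 CPM in knockdown DMSO libraries. It was at 13.3, 19.3 and 12.7 CPM in control triptolide libraries, against 7.49, 5.96 and 8.07 CPM in control DMSO libraries. Every triptolide library was higher, by log2 0.90 ± 0.24 (adjusted p = 0.00756) in the knockdown line and 1.07 ± 0.24 (adjusted p = 0.00282) in the control line; scaled to mitochondrial mRNAs the knockdown-line change was -0.48. The call was lost with total counts (0.18 and 0.42), with mitochondrial mRNAs in the control line (0.35) and, in the knockdown line, with no low-count filter (0.81, adjusted p = 0.0515). TAF10, a histone-fold subunit shared with the SAGA complex, was higher in the knockdown line (0.99, adjusted p = 0.00502) and, with the block, in the control line (0.60, adjusted p = 0.0111). The ILK gene on the opposite strand shares 40.8% of the exon bases of TAF10. TAF1, the largest subunit, was lower in the knockdown line (-0.70, adjusted p = 0.0189) and, with the block, in the control line (-0.39, adjusted p = 0.0466).

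None of the 7 subunits of TFIIA, TFIIB, TFIIE and TFIIF was called in either line by edgeR with TMM scaling. Scaled to total counts 4 were lower in the knockdown line and 3 in the control line, and scaled to mitochondrial mRNAs 6 and 2. In both lines 3 of the 7 were lower with total counts and 2 with mitochondrial mRNAs. Of all 21285 genes tested, 7056 and 5876 were lower in both lines with these 2 scalings. With no low-count filter GTF2E2 was lower in both lines. At an unadjusted p under 0.05 there were 1 higher and 1 lower in the knockdown line and 2 higher and 1 lower in the control line, DESeq2 called 1 and 2 higher, and the block gave 1 higher and 1 lower in the knockdown line and 4 higher and 1 lower in the control line. The block called 29.1% of all genes higher and 28.1% lower in the knockdown line, and 26.1% and 26% in the control line. GTF2A2, the small subunit of TFIIA, averaged 43.8 ± 4.59 CPM with triptolide and 33.7 ± 3.29 CPM with DMSO in the knockdown line, and 42.9 ± 4.06 against 32.8 ± 0.875 CPM in the control line (SD, n = 3 each), with log2 changes of 0.38 and 0.39 that passed with the block (adjusted p = 0.0088 and 0.00955). GTF2E2, the small subunit of TFIIE, averaged 20.3 ± 5.95 CPM with triptolide and 32.9 ± 6.30 CPM with DMSO in the knockdown line, and 19.99 ± 4.79 against 32.3 ± 6.12 CPM in the control line, and its log2 change of -0.69 in each line likewise passed with the block. SUPT5H (chr19:39926796-39967310, GRCh37, + strand), which with SUPT4H1 forms the pausing and elongation factor DSIF, was at 89.8, 46.6 and 74.3 CPM in knockdown triptolide libraries, against 84.1, 55.2 and 80.3 CPM in knockdown DMSO libraries. It was at 95.1, 53.0 and 89.3 CPM in control triptolide libraries, against 100, 57.8 and 73.4 CPM in control DMSO libraries. The groups overlapped, with log2 changes of -0.06 ± 0.31 (adjusted p = 0.898) and 0.04 ± 0.31 (adjusted p = 0.947). Scaled to mitochondrial mRNAs it was called lower in the knockdown line (-1.54, adjusted p = 0.00366).

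Outside the 60 genes, of 19 subunits specific to polymerases I and III, 9 were lower in the knockdown line and 8 in the control line, and 0 were higher (edgeR; also 0 at an unadjusted p under 0.05 and 0 with DESeq2), with median log2 changes of -0.70 and -0.51. The tested subunits shared with these polymerases, POLR2E, POLR2H, POLR2K and POLR2L, had log2 changes of 0.69, -0.12, 0.66 and 1.19 in the knockdown line and of 0.60, -0.23, 0.59 and 0.83 in the control line. POLR3E, a subunit of polymerase III, averaged 12.4 ± 2.39 CPM with triptolide and 51.9 ± 5.45 CPM with DMSO in the knockdown line, and 11.4 ± 1.65 against 61.8 ± 12.1 CPM in the control line (SD, n = 3 each; log2 -2.06 and -2.44). Of 15 tested polymerase II, TFIID and Mediator genes outside the 60, 1 was higher and 7 lower in the knockdown line, and 1 was higher and 5 lower in the control line. For these lists too, the shares of all genes were 16.7% higher and 18.9% lower in the knockdown line, and 14.9% and 16% in the control line. MED13L, the paralog of MED13, averaged 143 ± 55.6 CPM with triptolide and 595 ± 108 CPM with DMSO in the knockdown line, and 122 ± 42.0 against 510 ± 104 CPM in the control line (log2 -2.05 and -2.07). The paralogs of the other kinase-module subunits were not called, with log2 changes of -0.13 and 0.06 for CDK19 and of 0.17 and -0.01 for MED12L. TAF4B, the paralog of TAF4, was lower in the knockdown line (-0.79, adjusted p = 0.033) and, with the block, in the control line (-0.53, adjusted p = 0.0125), while TAF9B was at 0.42 and 0.35 and higher with the block. TAF7L, a paralog of TAF7 known from germ cells, had log2 changes of 2.74 and 2.56, at 0.791 ± 0.138 CPM with triptolide and 0.114 ± 0.0508 CPM with DMSO in the knockdown line and 0.525 ± 0.329 against 0.0879 ± 0.0668 CPM in the control line. POLR2J3 was not called (0.19 and 0.15), and POLR2J2 was too low to test.

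No member was called between knockdown and control cells under triptolide (0.0658% of all genes called), DMSO (0.094%) or no treatment (0.0987%), none in the difference between the lines in the triptolide response (0%), and none between DMSO and untreated cells in either line (0% in both), by edgeR or DESeq2, with or without the block. With the block, 0.644% of all genes were called between the lines under triptolide, 0.606% under DMSO, 0.578% untreated and 0.0047% in the difference of responses. Without it, at an unadjusted p under 0.05 there were 0, 0, 1 and 0 members in the first 4 comparisons, 1 for DMSO against untreated in the knockdown line and 0 in the control line. Both were POLR2A. With the block, CDK8 (-0.44), MED31 (-0.56) and TAF5 (-0.54) were lower in knockdown cells at that unadjusted level under triptolide, CDK8 (-0.32) and CCNC (-0.30) were lower and POLR2A higher in untreated cells, and MED13 (-0.40) differed in its response. None of these passed the adjustment. A few of 59 members can reach that level without any difference, so they are not taken as differences between the lines. POLR2A in untreated knockdown cells was at 145, 25.2 and 27.9 CPM, against 35.0, 21.0 and 31.2 CPM in untreated control cells, so a single library was high. The log2 difference was 1.18 ± 0.46 (unadjusted p = 0.0206, adjusted p = 1, edgeR), and without knockdown untreated replicate 1 it was -0.13. DMSO against untreated in the knockdown line gave -1.13 ± 0.46 (adjusted p = 1), and 0.19 without it. With no filter on low counts the untreated difference between the lines was called (adjusted p = 0.00776). Apart from POLR2A, log2 differences between the lines lay between -0.56 and 0.32 over the 3 treatments, and the line differences in the triptolide response lay between -0.53 and 0.40. The triptolide changes of the 59 members in the 2 lines had a Spearman correlation of 0.97, against 0.91 over all genes tested, a description across genes. The 2 changes use different libraries but come from 1 fit, and same-numbered libraries of the lines deviated together.

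Per kilobase of exon, the polymerase subunits had the highest levels: in control DMSO libraries their median was 19.8 CPM per kb without POLR2F, against 5.20 for Mediator, 2.73 for TFIID and 9.43 for the other factors. The order of Mediator and TFIID rests on the length used, since per kb of the canonical transcript the medians were 26.8, 8.04, 8.09 and 14.8. POLR2G, POLR2H, POLR2L and POLR2K led with 40.6 ± 5.60, 37.1 ± 1.27, 36.7 ± 8.87 and 35.9 ± 4.30 CPM per kb (SD, n = 3), which differ by less than the largest of their SDs. Per kb of the canonical transcript POLR2G stood at 97.6, against 64.7 for POLR2H, 63.4 for POLR2K and 47.2 for POLR2L, so this order rests on the length used. POLR2A was far lower at 3.43 ± 0.772 CPM per kb and ranked 44th of 60. The lowest tested members were MED26 (0.71 CPM per kb), MED31 (1.13) and MED23 (1.67). Across the 59 members the triptolide change had Spearman correlations of -0.30 and -0.24 with gene span, -0.23 and -0.20 with canonical transcript length and 0.27 and 0.16 with GC content in the knockdown and control lines, which are weak.

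The replicate numbers left a pattern of their own. Replicate 2 was the lowest of its group in all 6 groups for MED22, MED24, MED25, POLR2E, POLR2G and SUPT5H, and the highest in all 6 for GTF2B and MED28, against 7.79% and 8.28% of all genes. On average over the groups, replicate 2 lay below replicates 1 and 3 by log2 -0.87 for POLR2E, -0.85 for MED22 and -0.64 for SUPT5H, and above them by 0.52 for GTF2B. Across the 59 members this difference had a Spearman correlation of -0.72 with the GC content of the canonical transcript, against -0.55 across protein-coding genes.

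**Figure D4:**
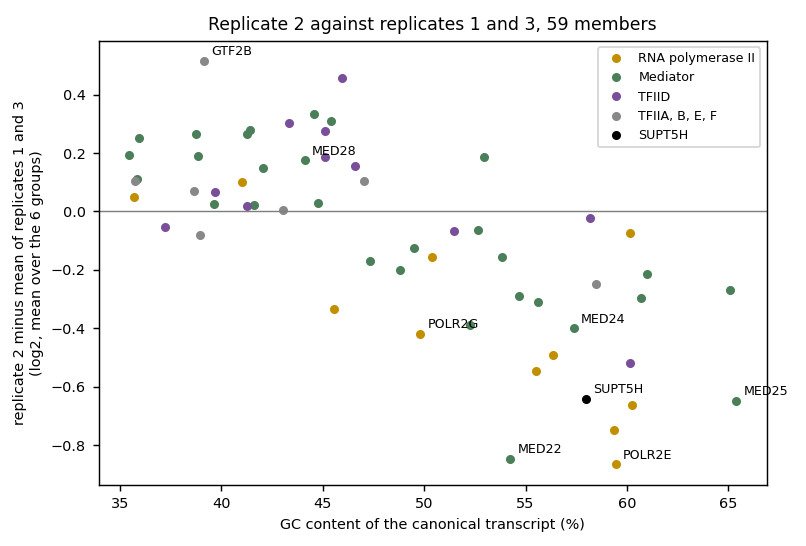
Replicate 2 minus the mean of replicates 1 and 3 (log2 CPM, mean over the 6 groups) against GC content of the canonical transcript, for the 59 tested members coloured by complex. Members with more GC lie lower, with POLR2E at -0.87 and MED22 at -0.85, and GTF2B is highest at 0.52.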

How the data were processed

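The authors deposited 1 table of raw read counts per gene for each of the 18 libraries. Reads were processed with STAR 2.4.2a, HTSeq 0.6.1, DESeq2 1.4.5 and R 3.1 on hg19, per the submitters' processing notes; the strand setting and annotation release are not given in the sources used here. Without strand-specific counting, reads of overlapping genes on opposite strands could not be told apart. Of 60252 gene IDs, 58822 (97.6%) matched GENCODE 44 lifted to GRCh37, which gave names, positions and lengths. HTSeq summary rows stayed out of library sizes, and ambiguous reads came to 5.76% to 8.37%.

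The counts were tested with edgeR 4.0.16 (quasi-likelihood, TMM scaling, filterByExpr by group, R 4.3.3) in 1 fit of all 18 libraries with 12 residual degrees of freedom. P-values were adjusted by Benjamini-Hochberg over 21285 genes, and a call is an adjusted p under 0.05. POLR2F failed the filter, so 59 members were tested. Alternatives were a replicate block, other scalings, no low-count filter, only the groups compared, DESeq2 1.42.0 and leaving out each library; leaving out knockdown untreated replicate 1 in every comparison, the canonical length and the centring on all genes were added after seeing the data. The code was tested on simulated counts. Replicate numbers paired the libraries: residuals of same-numbered libraries correlated at 0.31 to 0.69 over 45 pairs, against -0.52 to 3.4e-05 over 90 other pairs. The labels call the replicates biological but name no separate cultures, so p-values measure the spread between these samples.

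Members and gene lists were chosen with earlier results of these data known. Values in every library are given for POLR2A, TBP, MED1, MED12 and SUPT5H and, per class, for up to 2 members in each direction with the largest smaller change of the 2 lines among those called in both. Tables were handled with Python 3.11.15, pandas 2.3.3 and scipy 1.17.1, and plots drawn with matplotlib 3.10.9.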

Additional observations from a re-analysis of the deposited data

How the results depend on the processing

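Calls of higher members depended most on the processing. In the control line, 5 members called higher became 18 with the replicate block, 9 with DESeq2, 3 with no low-count filter, 2 with only the groups compared, and 0 scaled to total counts or mitochondrial mRNAs. In the knockdown line, 10 became 5 with no low-count filter and 0 with either of those scalings. Lower members numbered 36 (total counts) and 45 (mitochondrial mRNAs) in the knockdown line and 32 (total counts) in the control line. Over all 21285 genes tested, those lower in both lines went from 3051 to 7056 and 5876 with these 2 scalings. Those higher in both lines went from 2692 to 1283 and 732. With no low-count filter, 1 member (POLR2A) was higher in untreated knockdown than control cells. Scaled to total counts and to mitochondrial mRNAs, the log2 changes were -0.17 and -0.83 for MED28, -0.27 and -0.95 for MED29 and -0.038 and -0.74 for POLR2K in the knockdown line. In the control line they were -0.14 and -0.25 for MED28, -0.092 and -0.31 for MED29 and -0.044 and -0.18 for POLR2K. TAF13 was at -0.48 in the knockdown line with mitochondrial mRNAs. SUPT5H was at -0.60, -0.90 and, with no filter, -0.089 in the control line, not called, and at -0.80 (not called) and -1.54 (called lower) with those scalings in the knockdown line. With no low-count filter the calls of MED28, MED29 and POLR2K were lost in both lines (adjusted p 0.116 to 0.381). With only the groups compared, MED28 and MED29 were lost in both lines and MED12, MED30 and POLR2K in the control line (0.0513 to 0.104). The cause was not tested. Leaving out 1 library gave 5 to 8 higher and 15 to 22 lower members in the knockdown line, and 2 to 8 higher and 13 to 19 lower in the control line. It moved SUPT5H between -0.29 and 0.15 in the knockdown line and between -0.13 and 0.26 in the control line, and POLR2A between -0.13 and 1.57 for knockdown against control in untreated cells and between -1.51 and 0.19 for DMSO against untreated in the knockdown line. The replicate block changed no call of the 18 members given per library. Counts near the floor of 3 reads limited POLR2F.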

Other observations

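Of 25 polymerase II elongation and recycling factors, 1 was higher and 8 lower with triptolide in the knockdown line, and 2 were higher and 6 lower in the control line (edgeR, adjusted p under 0.05), with median log2 changes of -0.14 and -0.04. The shares of all genes were 16.7% higher and 18.9% lower in the knockdown line, and 14.9% and 16% in the control line. LEO1, a subunit of the PAF1 elongation complex, averaged 9.43 ± 3.93 CPM with triptolide and 58.4 ± 11.6 CPM with DMSO in the knockdown line, and 11.8 ± 4.69 against 61.6 ± 17.8 CPM in the control line (SD, n = 3 each; log2 -2.63 and -2.39). Its partners PAF1 (-1.30 and -1.09) and CDC73 (-1.14 and -1.03) were lower as well, RTF1 was lower in the knockdown line (-0.72, and -0.49 in the control line, lower with the replicate block), and CTR9 was not called (-0.25 and -0.003). NELFA, a subunit of the pausing factor NELF, had log2 changes of -2.20 and -2.02, while NELFB (-0.35 and -0.27), NELFCD (0.28 and 0.10) and NELFE (0.03 and -0.11) were not called. CTDP1, a phosphatase of the polymerase tail, had log2 changes of -2.03 and -1.98. GPN3, a GTPase needed for nuclear import of the polymerase, was higher, at 42.2 ± 2.42 CPM with triptolide and 25.2 ± 0.709 CPM with DMSO in the knockdown line, and 43.3 ± 6.51 against 25.4 ± 1.68 CPM in the control line (log2 0.74 and 0.77, TMM scaling). The values of the factors other than LEO1 and GPN3 were chosen for mention after they were seen.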
